A study of Mus musculus with 6 samples.

Results

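NF-kB is a family of transcription factors built as dimers of 5 Rel proteins. A set of 10 genes of this system are described here across 6 RNA-seq libraries of KPC1199 cells, a mouse line labelled as pancreatic tumour cells. The subunit genes are Nfkb1, Nfkb2, Rela and Relb. The others are the IkB family genes Nfkbia, Nfkbib, Nfkbie, Nfkbiz and Bcl3, and Tnfaip3, which encodes the inhibitor A20. The 10 genes are the rows, of 57508 genes in the deposited tables, whose gene name is on that list. The rule itself uses no measured value, although the list was drawn up with earlier results of these data known. The study compared 3 libraries labelled WT, named siACSL5_CY3, with 3 labelled ACSL5 knockdown, named siACSL5_2260 and called KO in their titles. The names of both groups begin with siACSL5, the labels do not explain the endings of the names, and they give no time, dose or culture conditions. Acsl5, the gene targeted, encodes an acyl-CoA synthetase that activates long-chain fatty acids. All 10 genes passed the filter on low counts, both with 6 libraries and when WT replicate 1, which stands apart, was left out.

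In resting cells the IkB proteins hold Rel dimers in the cytoplasm. Signals from cytokine and Toll-like receptors activate the IKK kinases, which mark the IkB proteins for destruction, and the dimers then enter the nucleus. Several inhibitor genes are themselves NF-kB targets, so that the response limits itself, and in pancreatic cancer cells the pathway is known for supporting survival and inflammatory signalling.

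With ACSL5 knockdown the largest difference among the 10 genes was in Nfkbib, which encodes IkB-beta, at 19.6 ± 4.03 CPM (SD, n = 3) against 6.54 ± 1.41 in WT (SD, n = 3), or 2.99-fold. CPM is the expected count relative to the library total, scaled by the TMM factors of edgeR. Of these, Nfkbib, Bcl3, Nfkb2 and Rela (4 genes) had a higher CPM in every knockdown library than in every WT library, and no gene was lower in every knockdown library. Among all 14679 genes tested, 18.7% were higher in every knockdown library and 15.6% were lower. In the fit of edgeR to all 6 libraries none of the 10 genes passed an adjusted p of 0.05, and the share of all genes that did was 0%. Without WT replicate 1, Nfkbib, Bcl3, Nfkbia, Nfkb2 and Rela passed, all higher with knockdown, where 16.3% of all 15152 genes tested were called higher and 18.0% lower. The labels name no separate cultures behind the replicates, and the p-values therefore measure the spread between these libraries, which may be technical. In RNA from whole cultures, fewer cells of a kind and less RNA per cell cannot be told apart.

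**Figure D1:**
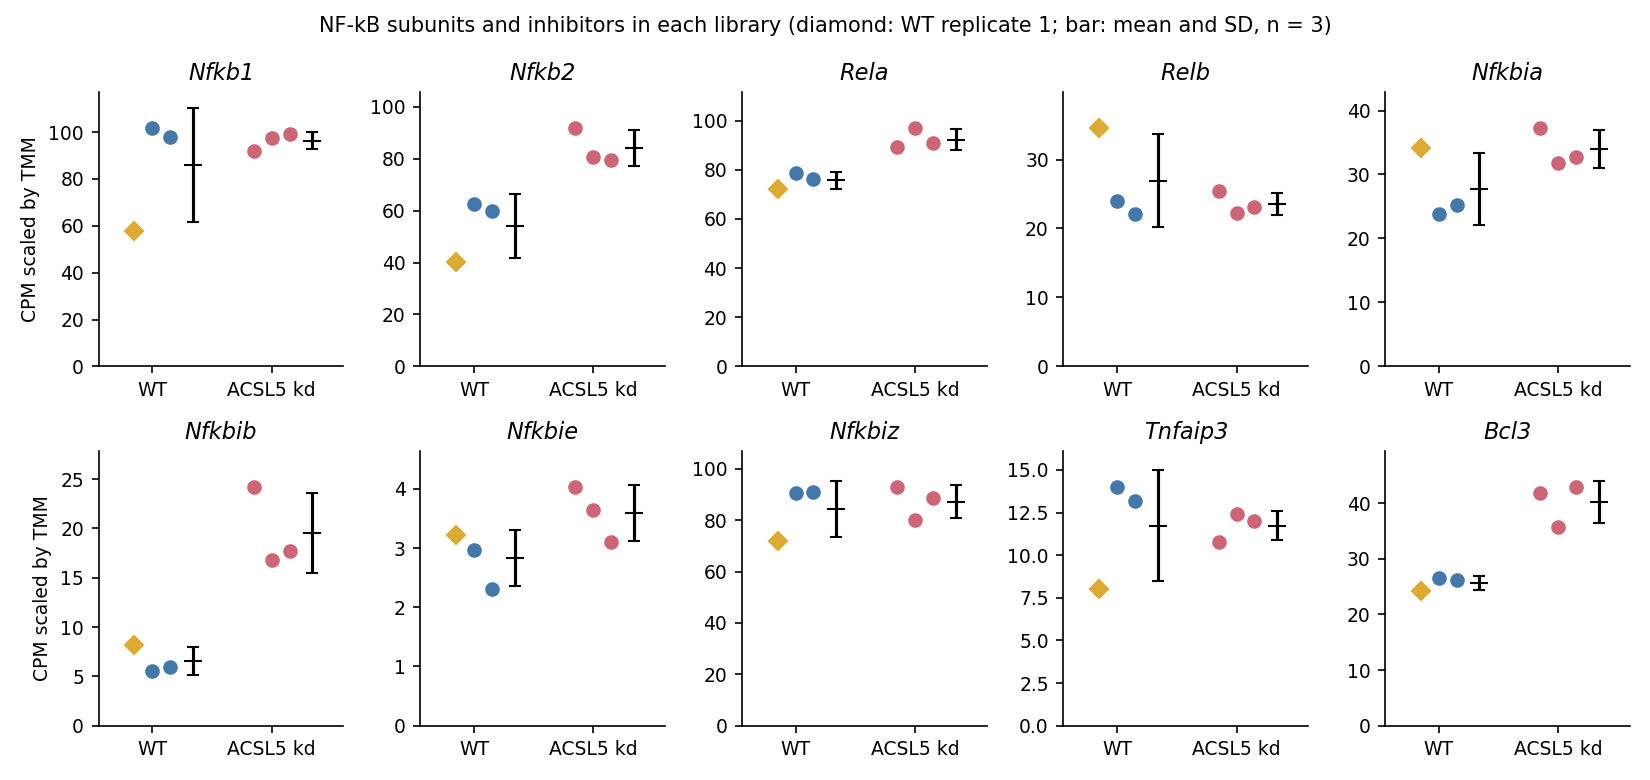
Expression of the 10 genes in CPM scaled by TMM (vertical axes, each starting at 0) in the WT and ACSL5 knockdown libraries; points are single libraries, the diamond is WT replicate 1, and bars are mean and SD of 3 libraries. The knockdown libraries lie above all WT libraries for Nfkb2, Rela, Nfkbib and Bcl3, and for Nfkbib the knockdown mean is 2.99 times the WT mean.

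The upstream sequences of 4 of these genes are shown to set their matches to the kB consensus, the sequence Rel dimers bind, beside the calls made without WT replicate 1. Those of Nfkb2 and Nfkbia, both called higher, held 3 matches and 1 match, that of Nfkbib, also called higher, held none, and that of Tnfaip3, which was not called, held 2. Each line gives the 250 bases before a RefSeq transcript start (build GRCm38.p6), read 5′ to 3′ on the strand of the gene, and capitals mark matches to the consensus on either strand. The stretches are chr19:46304487-46304736 on the plus strand for Nfkb2, chr12:55492648-55492897 on the minus strand for Nfkbia, chr7:28766645-28766894 on the minus strand for Nfkbib and chr10:19015411-19015660 on the minus strand for Tnfaip3.
Nfkb2: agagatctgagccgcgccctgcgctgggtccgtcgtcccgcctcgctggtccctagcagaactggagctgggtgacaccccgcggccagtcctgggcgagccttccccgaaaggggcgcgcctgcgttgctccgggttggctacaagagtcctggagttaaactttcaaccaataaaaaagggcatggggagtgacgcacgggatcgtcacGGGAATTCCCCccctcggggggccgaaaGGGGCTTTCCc
Nfkbia: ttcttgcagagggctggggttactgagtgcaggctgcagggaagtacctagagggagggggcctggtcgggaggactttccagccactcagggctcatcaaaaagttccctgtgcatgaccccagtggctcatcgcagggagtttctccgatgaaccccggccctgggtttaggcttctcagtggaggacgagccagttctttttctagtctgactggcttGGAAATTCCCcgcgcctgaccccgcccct
Nfkbib: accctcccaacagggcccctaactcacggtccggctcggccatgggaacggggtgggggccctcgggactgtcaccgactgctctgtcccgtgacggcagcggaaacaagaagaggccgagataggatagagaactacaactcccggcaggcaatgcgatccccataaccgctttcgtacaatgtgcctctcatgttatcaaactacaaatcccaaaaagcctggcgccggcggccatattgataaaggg
Tnfaip3: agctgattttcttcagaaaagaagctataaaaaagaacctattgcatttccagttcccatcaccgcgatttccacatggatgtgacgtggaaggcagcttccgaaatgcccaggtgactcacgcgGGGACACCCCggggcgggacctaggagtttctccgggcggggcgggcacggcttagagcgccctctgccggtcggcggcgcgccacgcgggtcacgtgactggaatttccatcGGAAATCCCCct
In Nfkb2 the matches begin 39, 38 and 11 bases before the start, the first pair overlapping. Other RefSeq starts of Nfkb2 held 1 match each, and the stretch of Nfkbie, not called and not shown, held 1. The Nfkbia match begins 29 bases before the start, and those of Tnfaip3 begin 125 and 12 bases before it, while a second Tnfaip3 promoter in the table held none. Of the 10 genes, 7 have promoters in the RefSeq table, 10 promoters in all, and 6 of these held a match, compared with 7.3% of 32851 promoters of all genes. The 6 are not separate genes. Several are starts of Nfkb2, some with overlapping windows, and the others belong to Nfkbia, Nfkbie and Tnfaip3. At least 2 matches were found in 2 of the 10 and in 1.03% of all promoters. A match describes the letters of the window and is not evidence of binding, and the upstream stretches of Rela and Bcl3 held none. The Nfkb2 and Nfkbib stretches lie inside the annotated genes, so bases before their outermost annotated starts were not searched. That of Tnfaip3 lies almost wholly inside its gene.

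Totals lay between 21794244 and 29996194 expected counts. The targeted gene, Acsl5, was at 342.4, 265.2 and 270.2 CPM in WT and at 49.8, 55.6 and 57.2 with knockdown, 18.5% of the WT mean, which goes with the labels (exact permutation test, two-sided, p = 0.1, the smallest that 3 against 3 libraries can give). WT replicate 1 correlated with the other libraries at 0.902 to 0.921 (Pearson, log2 CPM across genes), whereas the others correlated with each other at 0.972 to 0.992. Results are therefore given with and without it, a choice made with earlier results of these data known. Epithelial markers summed to 7849.9 to 9053.4 TPM, led by Krt19, with Cldn4 at 0 in all libraries. Leukocyte markers, 1 of 8 of them at a mean of 1 TPM or more, summed to 3.55 to 6.53 TPM in WT and to 7.29 to 8.64 with knockdown. That 1 was Cd68, at 3.42 to 8.49 TPM over all libraries, while Adgre1 and Cd3e were at 0 and Ptprc under 0.1. Endothelial markers summed to 0.12 TPM or less. Fibroblast markers, 3 of 6 of them at a mean of 1 TPM or more, ranged from 7.97 to 31.4 TPM in WT and from 21.5 to 24.2 with knockdown. Pdgfra led them, at 5.92 to 24.7 TPM over all libraries, with Lum at 0 and Dcn under 0.1. Acinar and islet markers ranged from 6.23 to 9.88 in WT and from 12.4 to 14.7 with knockdown, led by Cela1, with Ptf1a, Ins1, Ins2 and Gcg at 0. The part of these markers in the results was not tested.

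Levels of different genes are compared in TPM, which is per transcript length. In WT replicates 2 and 3 the most abundant was Rela, which encodes the activating subunit p65, at a mean of 72.2 TPM. Nfkb1 followed at 55.9 ± 2.03, Nfkbia at 47.0 ± 2.93 and Nfkbiz at 36.5 (SD, n = 2). Bcl3, at 35.1 ± 8.86, could not be separated from Nfkbiz or from Nfkb2 at 28.5 ± 1.32. Relb lay at 20.9 and 19.1 TPM in these 2 libraries, Nfkbib at 8.15, Tnfaip3 at 5.53 ± 1.42 and Nfkbie at 1.75. Rel, the fifth subunit gene and not among the 10, was at 4.37 TPM and did not differ from Tnfaip3 beyond their spread. With knockdown Rela was again first, at 85.2 ± 8.1 TPM and Nfkbie last at 2.38, and Nfkbib at 28.7 ± 6.36 did not differ from Nfkbiz at 36.0 ± 2.25 beyond their spread. In WT replicate 1 Bcl3 came first, at 27.0 TPM, and Rela second, at 23.0.

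The subunit genes come first. Nfkb2, which encodes p100, the precursor of p52 and itself an inhibitor of Relb dimers, measured 40.1, 62.5 and 59.7 CPM in WT and 91.9, 80.6 and 79.6 CPM with knockdown. Its groups did not overlap, and WT replicate 1 was the lowest library. The log2 fold change, knockdown against WT, was 0.63 (SE 0.202, edgeR adjusted p = 0.235) with 6 libraries and 0.44 (SE 0.0656, 95% interval 0.30 to 0.59, adjusted p = 0.000592) without WT replicate 1. Nfkb2 shares 299 exon bases with Psd and 531 with the non-coding gene AC114539.1, both on the opposite strand and at no more than 206.01 and 126.43 counts in a library. Since strandedness is not given in the sources used here, reads from these genes cannot be told apart there.

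Rela measured 72.1, 78.9 and 76.3 CPM in WT and 89.1, 97.1 and 90.8 CPM with knockdown. Every knockdown library was above every WT library, by a narrow margin, and WT replicate 1 lay close to the other 2. The log2 fold change was 0.28 (SE 0.122, edgeR adjusted p = 0.321) with 6 libraries and 0.24 (SE 0.0571, adjusted p = 0.00902) without WT replicate 1. Without WT replicate 2 or 3 as well, it was 0.26 and 0.21 and no longer passed. On the log2(TPM + 1) scale it was 0.23 and did not pass with limma either.

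Nfkb1, which encodes p105, the precursor of p50, measured 57.9, 101.8 and 97.8 CPM in WT and 92.1, 97.5 and 99.0 CPM with knockdown. WT replicate 1 stood far below the other 5 libraries, which overlapped. Without it the log2 fold change was -0.07 (SE 0.0558, 95% interval -0.19 to 0.06, edgeR adjusted p = 0.391). Relb, whose product pairs with p52 in the non-canonical branch, measured 34.6, 24.0 and 22.1 CPM in WT and 25.4, 22.3 and 23.1 CPM with knockdown. Here WT replicate 1 was the highest library and the others overlapped, with a log2 fold change without it of 0.02 (SE 0.0881, edgeR adjusted p = 0.89). Rel, which encodes c-Rel, measured 8.74, 21.5 and 22.4 CPM in WT and 22.7, 23.0 and 19.6 CPM with knockdown, with a log2 fold change without WT replicate 1 of -0.03 (edgeR adjusted p = 0.843).

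The 3 classical IkB genes differed in size of change. Nfkbib (ENSMUSG00000030595, chr7:28758251-28767512 in GRCm38, minus strand) measured 8.14, 5.5 and 5.97 CPM in WT and 24.2, 16.8 and 17.7 CPM with knockdown. The lowest knockdown library was above the highest WT library, and WT replicate 1 was the highest of the WT libraries. The log2 fold change was 1.58 (SE 0.232, edgeR adjusted p = 0.095) with 6 libraries and 1.75 (SE 0.169, 95% interval 1.36 to 2.13, adjusted p = 0.000105) without WT replicate 1. Over WT replicates 2 and 3 the ratio of mean CPM was 3.41. With 6 libraries and DESeq2 in place of edgeR, Nfkbib and Bcl3 passed, as did 7.68% of all genes, and at an unadjusted p below 0.05 in edgeR Nfkbib, Bcl3 and Nfkb2 passed, as did 16.0% of all genes. Nfkbib shares 42 exon bases with Sirt2 on the opposite strand, which reached 1695 counts in a library, and 314 with Ccer2, which had at most 1 count.

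Nfkbia, which encodes IkB-alpha, the inhibitor resynthesised fastest after NF-kB activation, measured 34.1, 23.8 and 25.2 CPM in WT and 37.3, 31.8 and 32.8 CPM with knockdown. WT replicate 1 fell within the knockdown range, and the other WT libraries lay below it. The log2 fold change was 0.29 (SE 0.18, edgeR adjusted p = 0.444) with 6 libraries and 0.45 (SE 0.0847, 95% interval 0.26 to 0.64, adjusted p = 0.00226) without WT replicate 1. Nfkbie, which encodes IkB-epsilon, was the scarcest, at 3.22, 2.97 and 2.3 CPM in WT and 4.03, 3.65 and 3.1 CPM with knockdown. Its groups overlapped through WT replicate 1, and its log2 fold change without that library was 0.43 (SE 0.218, 95% interval -0.05 to 0.92, edgeR adjusted p = 0.15).

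**Figure D2:**
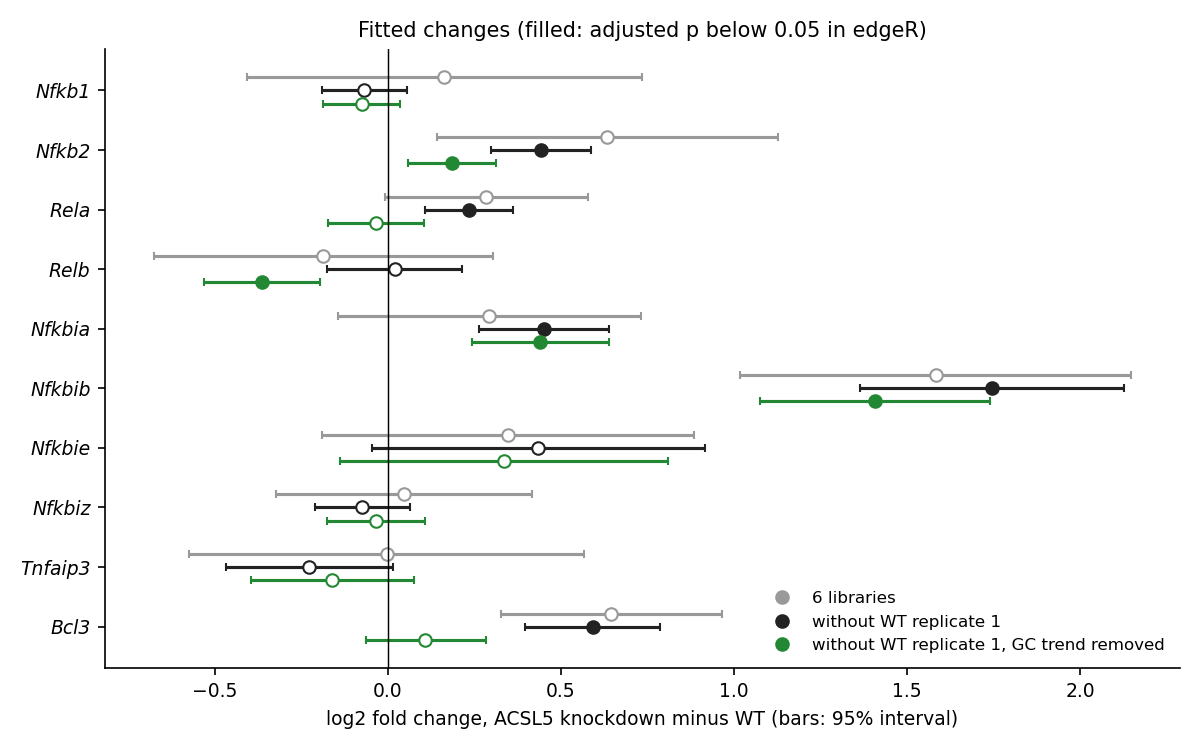
Log2 fold change of ACSL5 knockdown against WT (horizontal axis) for the 10 genes, with 95% intervals, in 3 edgeR fits: 6 libraries (grey), without WT replicate 1 (black), and the latter with the trend on GC content removed (green); filled points have an adjusted p below 0.05. Nfkbib lies between 1.41 and 1.75 in the 3 fits, Bcl3 moves from 0.59 to 0.11 and Rela from 0.24 to -0.03 when the GC trend is removed.

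The unequal changes moved the make-up of the classical IkB transcripts. Of the TPM of Nfkbia, Nfkbib and Nfkbie together, Nfkbib made up 21.5%, 14.6% and 14.0% in WT and 38.3%, 28.4% and 29.5% with knockdown. The groups did not overlap, with means of 16.7% ± 4.15 and 32.1% ± 5.46 (SD, n = 3 each; exact permutation test, two-sided, p = 0.1, the smallest possible). Nfkbia made up 79.9% ± 4.73 in WT and 65.3% ± 5.57 with knockdown (SD, n = 3 each), and Nfkbie 3.4% and 2.67%. Among the 5 Rel family genes the share of Nfkb2 was 15.4% ± 0.661 in WT and 18.2% ± 1.12 with knockdown, without overlap (SD, n = 3 each; exact permutation p = 0.1). The share of Relb was 19.6%, 11.4% and 10.8% in WT and 10.1%, 8.42% and 9.53% with knockdown, also without overlap. The shares of Rela, Nfkb1 and Rel overlapped between groups. A share shows unequal change within a set and not which gene changed.

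**Figure D3:**
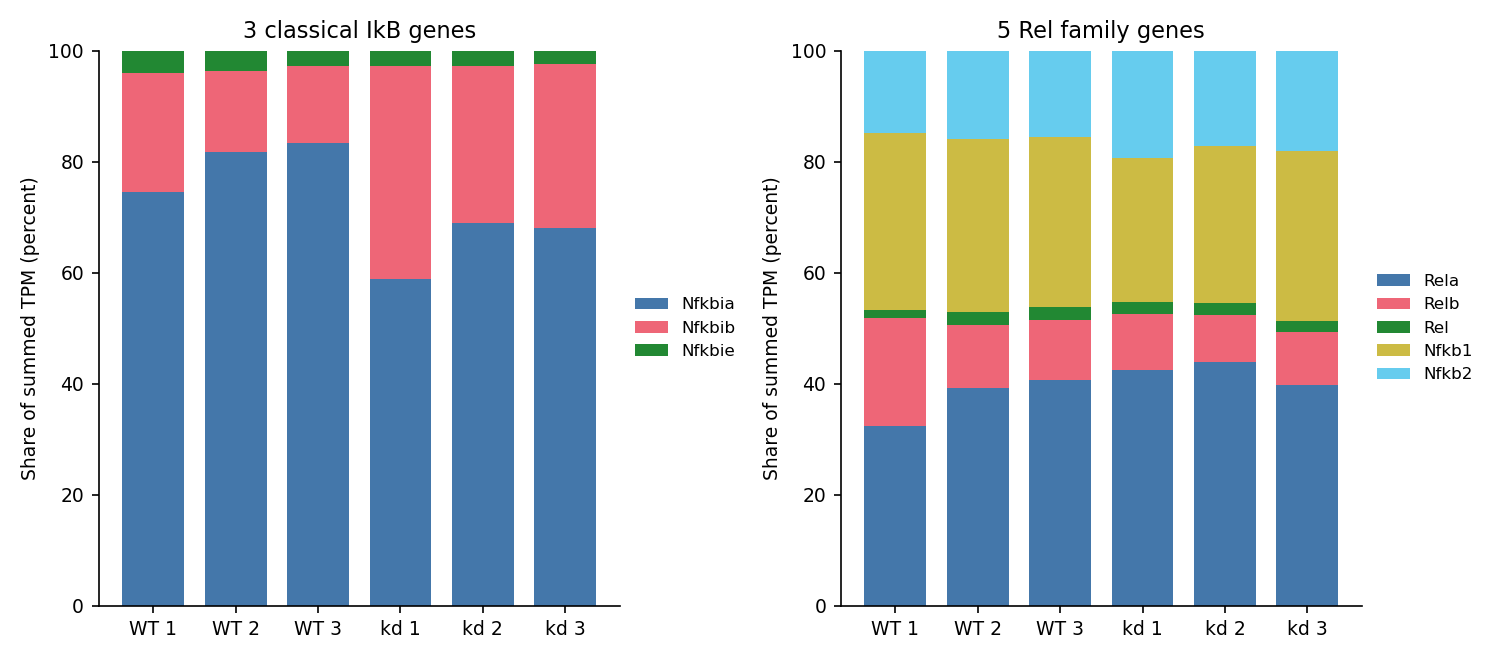
Stacked shares, in percent of summed TPM (vertical axes), of the 3 classical IkB genes (left) and the 5 Rel family genes (right) in each of the 6 libraries. Nfkbib takes 14.0% to 21.5% of the IkB sum in WT and 28.4% to 38.3% with knockdown.

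Of the nuclear IkB-like proteins and A20, Bcl3 alone was called, in the fit without WT replicate 1. Bcl3, which binds p50 and p52 dimers in the nucleus, measured 24.2, 26.5 and 26.2 CPM in WT and 41.9, 35.8 and 42.9 CPM with knockdown. The groups were well apart, and the 3 WT libraries lay close together. The log2 fold change was 0.65 (SE 0.132, edgeR adjusted p = 0.124) with 6 libraries and 0.59 (SE 0.0877, 95% interval 0.40 to 0.79, adjusted p = 0.000596) without WT replicate 1, a ratio of mean CPM of 1.52. In TPM the difference was smaller, at 0.39 on the log2(TPM + 1) scale, and did not pass with limma.

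Nfkbiz, which encodes IkB-zeta, a cofactor of secondary response genes such as Lcn2, measured 71.8, 90.5 and 91.0 CPM in WT and 92.9, 80.1 and 88.7 CPM with knockdown. The groups overlapped, and the log2 fold change without WT replicate 1 was -0.07 (SE 0.0622, 95% interval -0.21 to 0.06, edgeR adjusted p = 0.399). Tnfaip3, which encodes A20, an enzyme that edits ubiquitin chains on signalling proteins, measured 8.03, 14.0 and 13.2 CPM in WT and 10.8, 12.4 and 12.0 CPM with knockdown. WT replicate 1 was the lowest library, and the other WT libraries lay just above the knockdown ones. Without WT replicate 1 the log2 fold change was -0.23 (SE 0.109, 95% interval -0.47 to 0.02, edgeR adjusted p = 0.139).

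The median log2 fold change of the 10 genes was 0.29 with 6 libraries and 0.34 without WT replicate 1, beside medians of -0.02 and -0.01 over all genes tested. Values without WT replicate 1 moved with the GC content of the transcripts. With the genes split by GC content into 10 equal bins, the median was -0.14 in the lowest bin, at 30.8% to 41.4% GC, and 0.32 in the highest, at 58.1% to 75.9%. Nfkb2, Rela, Relb, Nfkbib and Bcl3, with a GC content between 59.1% and 62.6%, belong to this highest bin. With the trend removed, Nfkbib at 1.41, Nfkbia at 0.44 and Nfkb2 at 0.19 still passed in edgeR, Bcl3 at 0.11 and Rela at -0.03 did not, and Relb at -0.36 passed as lower.

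**Figure D4:**
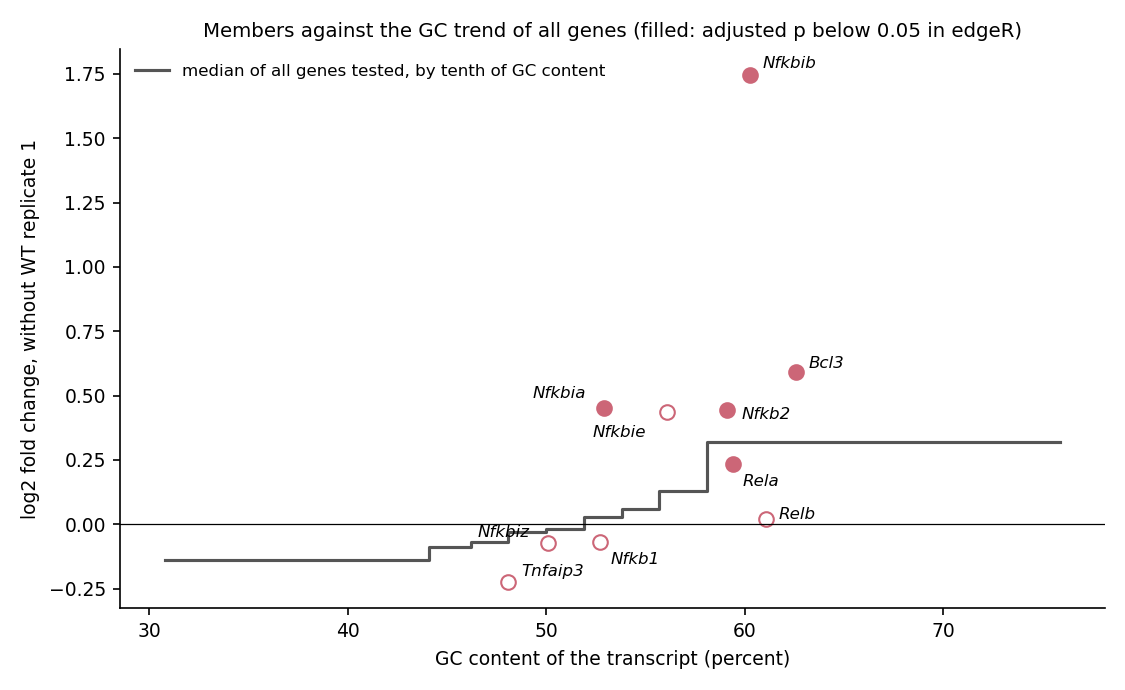
Log2 fold change without WT replicate 1 (vertical axis) against the GC content of the transcript in percent (horizontal axis) for the 10 genes; filled points have an edgeR adjusted p below 0.05, and the stepped line is the median of all genes in each of 10 equal bins of GC content. The line climbs from -0.14 to 0.32, with Nfkb1, Rela, Relb, Nfkbiz and Tnfaip3 below it and Nfkbib far above it.

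For some of the 10 genes the counts and the TPM imply different transcript lengths in different libraries. The implied length is the count per TPM, scaled in each library so that the median gene has its deposited length. For Bcl3 it was 835, 1594 and 1100 bases in WT and 1670, 1440 and 1557 bases with knockdown, a ratio of highest to lowest of 2.0. The ratio was 1.66 for Rela and 1.64 for Nfkbia, with WT replicate 1 the longest in both, and 1.08 for Nfkbib. Across 9977 genes the median ratio was 1.18 and the 90th percentile 1.78. In TPM, Nfkb2, Rela, Nfkbia, Nfkbib, Nfkbie and Bcl3 were higher in every knockdown library than in every WT library, as were 25.6% of all genes, while 5.61% were lower. With 6 libraries the median log2 fold change of all genes was 0.262 on the log2(TPM + 1) scale and -0.02 in edgeR. Without WT replicate 1 these medians were 0.026 and -0.01, so the upward shift in TPM went with that library. In TPM without it, the same genes were higher in every knockdown library, as were 29.3% of all genes, while 23.4% were lower.

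Patterns over the 6 libraries were compared by the root mean square difference of centred log2 CPM. The pair most alike was Nfkb1 and Tnfaip3, at 0.0938, both low in WT replicate 1. Nfkb2 was nearest to Bcl3, at 0.184, and Nfkbia to Nfkbie, at 0.151. Nfkbib stood farthest from the rest, its nearest being Bcl3 at 0.502. Among 10084 genes of at least 5 CPM, the nearest to Nfkbia were Sqstm1, which encodes the autophagy adaptor p62, at 0.034, Ptp4a1, a phosphatase gene, at 0.0493 and Rrp8 at 0.0511.

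The rest of the pathway was read from lists of 99 genes by role, of which 89 were tested without WT replicate 1. There 23 were called higher and 18 lower, where all genes gave 16.3% and 18.0%, and the median log2 fold change was 0.06 against -0.01 over all genes. With 6 libraries 0 of 87 passed in edgeR, while 21 had an unadjusted p below 0.05, as did 16.0% of all genes. Of the 41 calls, 29 were made again in the same direction with the GC trend removed, 19 with limma on log2(TPM + 1), 25 without WT replicate 2 and 23 without WT replicate 3. Values for these lists are from the edgeR fit without WT replicate 1 unless stated, and each count of a list stands against the 16.3% of all genes called higher and 18.0% called lower there.

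The list named IKK complex and NIK held 6 genes, among them Tbk1 and Ikbke, which encode IKK-related kinases outside the complex. Of the 6 genes, 4 fell and 1 rose, beside 18.0% and 16.3% of all genes. Ikbkb, which encodes the IKK-beta kinase of the canonical branch, measured 51.8, 76.0 and 79.3 CPM in WT and 65.5, 64.8 and 62.7 CPM with knockdown, which is -0.29 as log2 fold change (SE 0.0508, adjusted p = 0.00161). WT replicate 1 lay below the knockdown libraries and the other WT libraries above them, and the gene did not pass on the log2(TPM + 1) scale (limma adjusted p = 0.0525). Chuk, which encodes IKK-alpha, fell by 0.20 on the log2 scale (adjusted p = 0.0104) but by 0.06 and without passing once the GC trend was removed, and the call was also lost without WT replicate 2 or 3 and on the log2(TPM + 1) scale. Ikbke fell by 0.36 (adjusted p = 0.0197), and its 3 knockdown libraries were below all WT libraries, but the call was lost without knockdown replicate 2, knockdown replicate 3 or WT replicate 2 and on the log2(TPM + 1) scale, at -0.23. Map3k14, which encodes NIK, the kinase that starts p100 processing, measured 5.62, 10.9 and 8.11 CPM in WT and 13.8, 13.1 and 13.9 CPM with knockdown, which is 0.51 as log2 fold change (adjusted p = 0.0149), and did not pass with the GC trend removed or without knockdown replicate 3 or WT replicate 3. Tbk1 was at -0.02 and not called.

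Of 10 receptor genes tested, 4 rose and 1 fell, beside 16.3% and 18.0% of all genes. Tlr4, the receptor for bacterial lipopolysaccharide, fell by 0.41 (adjusted p = 0.00081) and Tlr3, the receptor for double-stranded RNA, rose by 0.42 (adjusted p = 0.00582). Neither passed on the log2(TPM + 1) scale, and the Tlr3 call was lost without WT replicate 2. For Tlr4, WT replicate 1 lay below every knockdown library, at 26.1 CPM, and the log2 fold change with 6 libraries was -0.13. Tnfrsf12a, the TWEAK receptor, rose by 0.51 (adjusted p = 0.0277) but was at -0.01 with 6 libraries, since WT replicate 1 had 217.7 CPM against 93.1 and 92.2 in the other WT libraries. Its call was lost with the GC trend removed, at 0.18 (adjusted p = 0.162), with the length trend removed, on the log2(TPM + 1) scale and without WT replicate 2 or 3. Tnfrsf1b rose by 0.16 (adjusted p = 0.0233), a call lost with the GC trend removed (adjusted p = 0.0518) and without knockdown replicate 2, WT replicate 2 or WT replicate 3. Ltbr, at 0.15, was not called (adjusted p = 0.0505), and with the GC trend removed it turned to -0.19 and was called lower (adjusted p = 0.00937). Of 23 adaptors, kinases and ubiquitin ligases, 6 rose and 6 fell, again beside 16.3% and 18.0% of all genes, and the most abundant not called, Tab2, was at 0.04. Fbxw11 and Btrc, the F-box proteins that recognise phosphorylated IkB, fell by 0.49 and 0.35 (adjusted p = 0.000207 and 0.00106). Both had their lowest CPM in WT replicate 1, at 79.7 and 36.0, so their groups overlapped with 6 libraries, and Btrc did not pass on the log2(TPM + 1) scale. Irak2 rose by 0.54, from 31.3, 30.7 and 31.1 CPM to 43.2, 45.1 and 47.5 (adjusted p = 0.000289), and Irak4 fell by 0.48, from 39.2, 35.9 and 34.6 CPM to 26.3, 24.7 and 25.9 (adjusted p = 0.000664). In both of these kinase genes of interleukin-1 receptor signalling all 3 WT libraries lay together. Of 12 other negative regulators 1 passed, Pdlim2, at 0.45 (adjusted p = 0.0365). That call was lost with the GC trend removed, at 0.31 (adjusted p = 0.125), on the log2(TPM + 1) scale and without knockdown replicate 2, WT replicate 2 or WT replicate 3. The most abundant of this list, Tax1bp1, was at -0.08 and not called. The IkB-like gene Nfkbil1 measured 8.74, 5.5 and 3.8 CPM in WT and 21.8, 11.9 and 14.4 CPM with knockdown, and rose by 1.78 (SE 0.348, adjusted p = 0.0186), a call lost without WT replicate 2 or 3.

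Of 15 cytokine and chemokine targets tested, 3 rose and 2 fell, and of 18 survival, adhesion and other targets, 7 rose and 4 fell, where 16.3% of all genes were called higher and 18.0% lower. Csf1, the macrophage growth factor, measured 58.5, 79.4 and 76.6 CPM in WT and 159.3, 148.9 and 146.2 CPM with knockdown (log2 fold change 0.94, SE 0.053, adjusted p = 2.32e-06). Ptgs2, the inducible prostaglandin synthase, measured 80.6, 143.1 and 140.6 CPM in WT and 234.6, 236.1 and 225.3 CPM with knockdown (0.69, SE 0.0454, adjusted p = 5.4e-06). The neutrophil chemokine gene Cxcl1 measured 25.6, 16.7 and 15.8 CPM in WT and 41.6, 29.1 and 32.9 CPM with knockdown (1.07, SE 0.146, adjusted p = 0.00127). In these 3 genes every knockdown library was above every WT library, whichever way WT replicate 1 departed from its group. Lcn2, an iron-siderophore binding protein, measured 66.8, 29.4 and 29.1 CPM in WT and 10.2, 11.6 and 14.4 CPM with knockdown (-1.29, SE 0.133, adjusted p = 0.000135). The adhesion gene Vcam1 fell by 0.93, from 10.4, 11.9 and 12.0 CPM to 7.1, 6.08 and 5.9 (adjusted p = 0.000314). Both were lower in every knockdown library than in every WT library. Cxcl2, at 1.8 CPM or less in WT, rose (adjusted p = 0.00601), and Csf3, at 1.73 CPM or less, fell (adjusted p = 0.00914), but Cxcl2 was no longer called without WT replicate 3, nor Csf3 without WT replicate 2 or on the log2(TPM + 1) scale. Ier3, an immediate early gene, rose by 0.44 (adjusted p = 0.00015), but was at 0.25 with 6 libraries (edgeR adjusted p = 0.516). Its highest library was WT replicate 1, at 157.5 CPM, so its groups overlapped. The most abundant genes not called were Cxcl5 among the cytokine and chemokine targets, at 0.00, and Sdc4 among the others, at 0.07. With the GC trend removed Cxcl5 was at 0.16 and passed (adjusted p = 0.0346). Of 3 ligand genes tested, Il33, an alarmin, fell by 0.62, from 79.9, 102.0 and 98.1 CPM to 66.8, 67.7 and 63.6 (adjusted p = 2.15e-05), and Tnfsf12 was at 0.20 and not called.

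**Figure D5:**
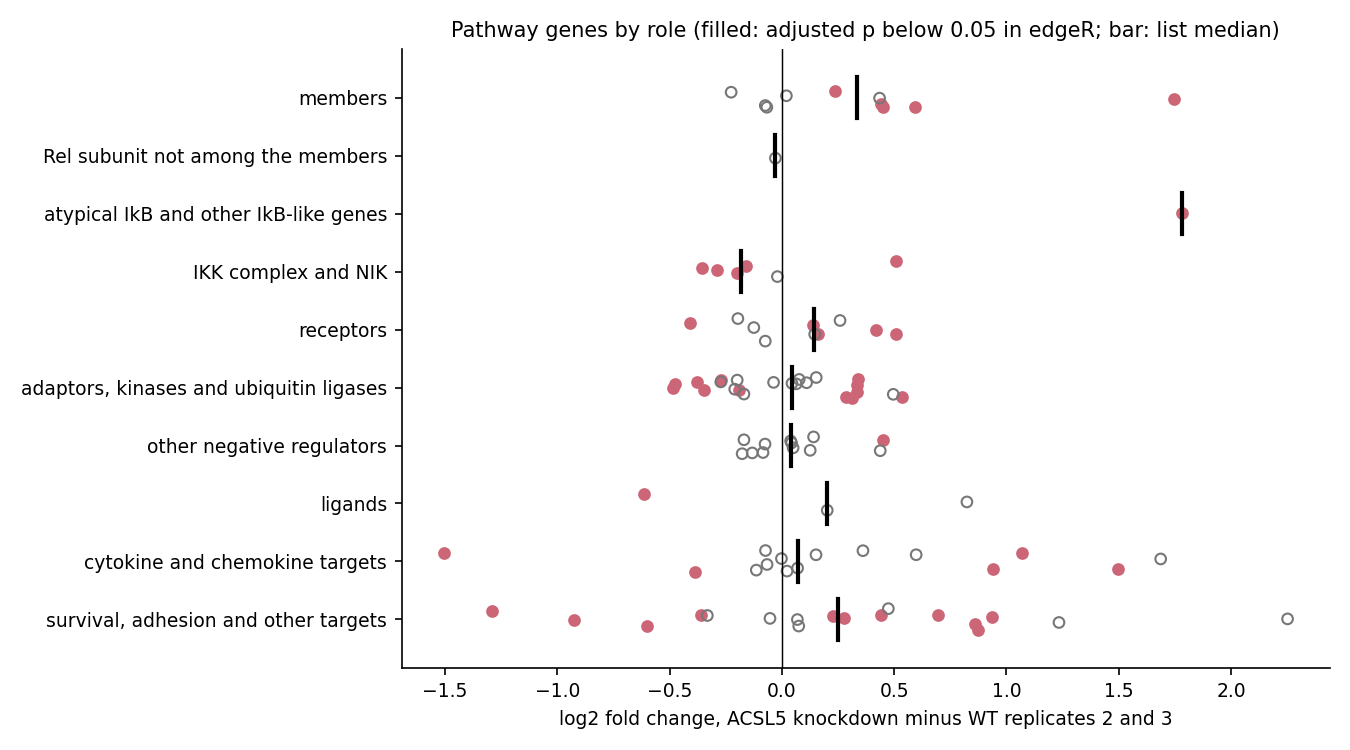
Log2 fold change without WT replicate 1 (horizontal axis) of the 10 genes, named members in the plot, and of the pathway genes tested, by role (rows; vertical spread within a row has no meaning); filled points have an edgeR adjusted p below 0.05 and bars are list medians. The medians lie at 0.34 for the 10 genes, -0.18 for the IKK complex and NIK, 0.07 for cytokine and chemokine targets and 0.25 for the other targets.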

How the data were processed

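The labels describe total RNA of KPC1199 cells sequenced on an Illumina platform. One table that the authors deposited gives expected counts, in which 10.1% to 13.0% of the values of a library were not whole, and the other gives TPM, whose columns sum to between 999999 and 1000001. Group-mean columns of both tables were not used. StringTie, HISAT2, fastp and DESeq2 are listed in the submitters' processing notes, with the human builds hg38 and GRCh38, although the identifiers are mouse Ensembl ones. For the quantifier, its annotation and strandedness, nothing is given in the sources used here.

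Expected counts were rounded to whole numbers, filtered with filterByExpr, scaled by TMM and compared with the quasi-likelihood test of edgeR 4.0.16 (robust, R 4.3.3), two-sided, with Benjamini-Hochberg adjustment over all genes tested and a threshold of 0.05. The fit was made with 6 libraries and without WT replicate 1. CPM values in both cases use the scaling of the 6 libraries. Alternatives used limma 3.58.1 and DESeq2 1.42.0. The edgeR fit was tested on simulated counts, with 6 libraries and without WT replicate 1. Those counts held no departure of WT replicate 1 and no GC trend, and the alternatives were not tested on them.

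GC content comes from the GENCODE M21 transcript (GRCm38) closest to the deposited length, and its trend was removed by lowess with a span of 0.3. The kB consensus was searched on both strands of the RefSeq promoters. Markers count from a mean of 1 TPM. The 10 genes, the lists and the fit without WT replicate 1 were chosen with earlier results of these data known. Named beside the 10 genes are Acsl5, Rel, in each list up to 4 called genes of smallest p without WT replicate 1 and the most abundant gene not called, and for Nfkbia the 3 genes of most similar pattern. In replicate pairs the chi-square per gene was 3.32 or more, so none differed by sampling noise alone.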

Additional observations from a re-analysis of the deposited data

How the results depend on the processing

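With 6 libraries, 0 genes passed in edgeR, 2351 had an unadjusted p below 0.05, and the count passing was 1127 with DESeq2, 3 with the GC trend removed, 879 with the length trend removed, 1 with library totals, 9 with limma-voom, 5906 with quality weights, which gave WT replicate 1 a weight of 0.0312, 4 with no filter, 5 without robust estimation and 0 to 5193 when 1 library was left out, the highest without WT replicate 1. Of the 10 genes, 2, 1 and 5 passed with DESeq2, the length trend removed and quality weights, and 0 to 5 with a library left out. Of the pathway lists, 14, 12 and 45 genes passed in the same settings, and 0 to 41 with a library left out. Without WT replicate 1, limma on log2(TPM + 0.1) and log2(TPM + 1) called 2544 and 2464 genes in place of 5193, 3 and 3 of the 10 genes in place of 5, and 22 and 21 pathway genes in place of 41. Leaving out a further library gave 2599 to 6188 genes, 4 or 5 of the 10 and 23 to 47 of the pathway, and a lone WT library is assumed there to vary like the knockdown group. The cause of these differences was not tested.

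The directions of Nfkb2, Nfkbia, Nfkbib, Nfkbie and Bcl3 held in every setting with either set of libraries, and Nfkbib without WT replicate 1 stayed called, between 1.41 and 1.86. Directions changed in some settings for Nfkb1, Nfkbiz, Relb, Tnfaip3 and Rela, of which Rela was called higher without WT replicate 1. With 6 libraries, Nfkb1 was at -0.03 with quality weights. Nfkbiz was at -0.07 with the length trend removed and -0.08 with quality weights. Rela was at -0.01 with the GC trend removed. Relb was at 0.09 and 0.08 on the log2(TPM + 0.1) and log2(TPM + 1) scales and 0.01 with quality weights. Tnfaip3 was at 0.03 with the GC trend removed, 0.08 with library totals, 0.39 and 0.28 on the TPM scales, 0.02 with limma-voom and 0.01 with no filter. Without WT replicate 1, Nfkb1 was at 0.03 on both TPM scales, Rela at -0.03 and Relb at -0.36 with the GC trend removed, and Relb at -0.09 and -0.08 on the TPM scales. With a library left out, values ran from -0.07 to 0.31 for Nfkb1, -0.07 to 0.11 for Nfkbiz, -0.32 to 0.02 for Relb and -0.23 to 0.14 for Tnfaip3 with 6 libraries, and from -0.04 to 0.08 for Relb without WT replicate 1.

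Same-numbered libraries did not deviate together (correlations of -0.115, 0.02 and -0.142). The deviations are from a group mean that WT replicate 1 moves, so these values cannot show whether the numbers pair the libraries. With the replicate number as a block, 0 genes passed with 6 libraries, where Tnfaip3 was at 0.03. Without WT replicate 1 the block gave 5753 genes in place of 5193, 5 of the 10 genes and 46 of the pathway, with Relb at -0.03. Knockdown replicate 1 is then alone at its number and adds nothing to the comparison, so this fit cannot check pairing across the 5 libraries. Nfkbib was at 1.58 there and also in the fit without knockdown replicate 1. Genes with few counts, Nfkbie among them, have wide intervals at this depth.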
